A study of Mus musculus with 8 samples.

Results

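Ribosome biogenesis genes encode the RNA polymerase I subunits, processing factors, small nucleolar ribonucleoproteins and assembly factors that make ribosomes. The set held 36 such genes, chosen by symbol from a list of names, out of 18193 genes that the array annotation names with a single symbol. Where a gene had several probe sets, its value was that of the probe set with the highest mean over the 8 arrays. All 36 genes were measured, and each lay above the detection filter, a log2 signal of 2.67, on all 8 arrays.

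Expression had been measured on Affymetrix mouse arrays in haematopoietic stem cells sorted from fetal liver. The tested embryos were heterozygous for Crebbp (Crebbp+/-) and the controls were wild type, both on a C57BL/6 background, and the cells carried the phenotype Sca-1+, Lin-, AA4.1+, c-Kit++. Each genotype had 2 numbered samples of 15 pooled embryos with 2 arrays per sample, from 12 ng of amplified RNA, and the labels give the age both as 14.5 and as 14 days post coitum. The 2 arrays of a sample were averaged because the labels do not say that they came from separate cells, so n = 2 per genotype and p-values measure the spread between these preparations. The sex of the embryos and the part of Crebbp that is mutated are not in the labels. Crebbp encodes CBP, an acetyltransferase that CREB and other transcription factors recruit. Its brightest probe set had log2 signals of 11.95 and 11.66 in the Crebbp+/- samples, against 12.07 and 11.41 in the wild-type samples. Of the other 3 tested probe sets, 1 differed by 0.011, and the 2 dimmest by -0.42 and -0.35 with both Crebbp+/- samples below both wild-type samples. None passed the test, and a probe set checks the genotype only if it lies in the mutated part.

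Ribosome production starts in the nucleolus, where RNA polymerase I transcribes a long precursor of the ribosomal RNAs. The small-subunit processome folds and cuts the precursor's 18S part, while box C/D and box H/ACA particles guide its methylation and pseudouridylation. A separate set of factors assembles the large, 60S subunit. Growing and dividing cells make many ribosomes, and the transcription factor MYC is a known activator of these genes. Blood formation is sensitive to the pathway: inherited defects in SBDS and DKC1 cause human bone marrow failure syndromes.

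Promoter sequences are shown because CBP is recruited by CREB, and because MYC and its partner MAX bind the E-box. RefSeq promoter windows (GRCm38.p6, 300 bases, 250 before to 50 after a gene's start) were found for 30 of the 36 genes, all but Utp6, Rrp12, Dcaf13, Fbl, Bop1 and Sbds. They were searched on both strands for the core of the CREB site, TGACGT, and for the E-box, CACGTG. A CREB core and an E-box can overlap by at most 2 letters at their ends, and none of those found did. The CREB core was present in the windows of 7 of the 30 genes (23.3%), against 13.8% of 8764 genes tested on the arrays and 8.37% of all 27025 genes of the table. The E-box was present for 5 (16.7%), against 12% and 8.09%. A match is a description of these letters and does not show binding. The sites follow 5′ to 3′ on the gene's strand, with up to 10 bases on either side and the motif in capitals, so that ACGTCA is the CREB core on the opposite strand.
Polr1c CREB core (chr17:46248078-46248103, minus strand): tggccccactTGACGTccggaagtga
Utp15 CREB core (chr13:98263026-98263051, minus strand): cctgcgctgcACGTCAtcttcccgcg
Utp18 CREB core (chr11:93885794-93885819, minus strand): ggagtgggagTGACGTagcgcgcgag
Nop58 CREB core (chr1:59684941-59684966, plus strand): cgaccagaagTGACGTtacttcccag
Nolc1 CREB core (chr19:46075749-46075774, plus strand): gcgtggcatcTGACGTagaagctccg
Ncl CREB core (chr1:86359537-86359562, minus strand): tcaggagcagACGTCAggccccgccc
Bysl CREB core, upstream site (chr17:47611676-47611701, minus strand): aagtcctaccACGTCActcccatagc
Bysl CREB core, site at the start (chr17:47611474-47611499, minus strand): catttctagaACGTCAtcgactcggc
Utp18 E-box (chr11:93885771-93885796, minus strand): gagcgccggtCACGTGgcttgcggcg
Nop2 E-box (chr6:125131813-125131838, plus strand): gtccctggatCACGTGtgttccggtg
Pes1 E-box (chr11:3963967-3963992, plus strand): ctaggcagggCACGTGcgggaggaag
Wdr43 E-box (chr17:71616222-71616247, plus strand): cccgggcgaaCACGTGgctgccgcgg
Utp20 E-box (chr10:88826765-88826787, minus strand): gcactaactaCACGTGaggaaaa

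The CREB cores of Utp18, Polr1c, Utp15 and Nop58 began at positions -43, -48, -49 and -55 from the annotated start. The other sites began at -88 in Nolc1, at -97 in Ncl and at -199 and 3 in Bysl. The 7 genes with a CREB core differed among themselves in the genotype comparison. Log2 differences, Crebbp+/- minus wild type, were 0.42 for Bysl, 0.41 for Nolc1, 0.39 for Utp15 and 0.13 for Ncl. They were 0.015 for Nop58, -0.022 for Polr1c and -0.067 for Utp18. For the 5 genes with an E-box the differences lay between -0.067 for Utp18 and 0.12 for Pes1.

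The genotypes were compared to ask how loss of 1 Crebbp allele relates to expression in these cells. Across the set, small positive differences were more frequent than negative ones, and no gene passed the test. In Crebbp+/- cells 27 of the 36 genes had a higher mean log2 signal than in wild type and 9 had a lower one, while over all 10692 genes tested 56.8% were higher. The median log2 difference was 0.10 over the set and 0.041 over all genes. Differences ran from -0.067 for Utp18 to 0.67 for Rrp9, that is from 0.955-fold to 1.59-fold, and 25 of the 36 were smaller than 0.15 in size. Limma, adjusted by the Benjamini-Hochberg method over all 22846 probe sets tested, called none of the 36 at 0.05 (adjusted p from 0.989 to 0.999). It called 0% of all probe sets, so the lack of calls is not particular to these genes. At an unadjusted limma p under 0.05 none of the 36 was found, against 2.65% of genes and 4.83% of probe sets.

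Mean log2 signals in wild type ran from 4.75 to 12.45 over the 36 probe sets, with a median of 9.83, and are not compared between genes because probe sets differ in brightness. The precision bounds what could be seen. The 95% intervals of all 36 genes included 0, and those of 26 genes lay within 1 log2 unit on either side of it. With 2 samples against 2, an exact permutation test cannot go below 0.33, so none was used. The median of 0.10 fell to 0.051 without array 2 of wild-type sample 1, and quantile normalization of the deposited values gave 0.060. Omitting any 1 of the 4 samples left medians from 0.10 to 0.13 and 24 to 27 genes higher. Over all genes tested, the same omissions left 51.0% to 61.0% higher. In bulk samples, a change in the share of cells that express a gene and a change in RNA per cell cannot be told apart.

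**Figure D1:**
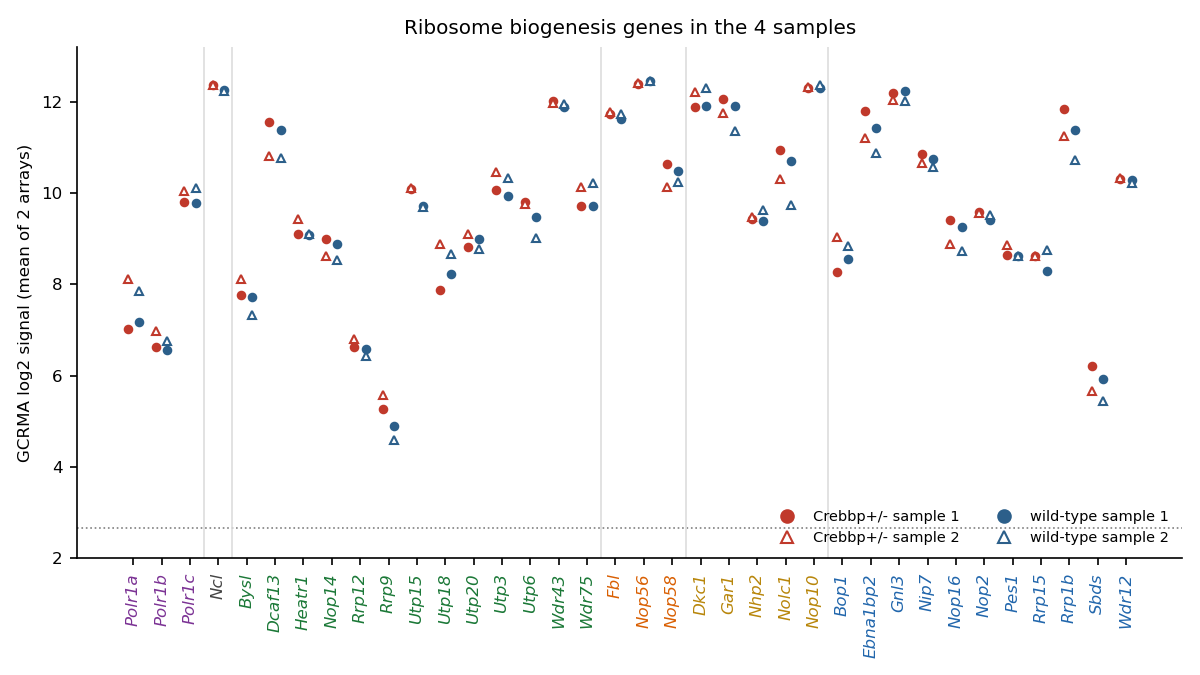
GCRMA log2 signal (y axis, mean of 2 arrays) of each of the 36 genes (x axis, coloured by role) in Crebbp+/- samples (red, left) and wild-type samples (blue, right), circles for sample 1 and triangles for sample 2, with the filter of 2.67 dotted. The 4 samples of a gene lie close together for Ncl, Nop10 and Nop56 and farther apart by sample number for Polr1a, Utp18 and Nolc1.

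**Figure D2:**
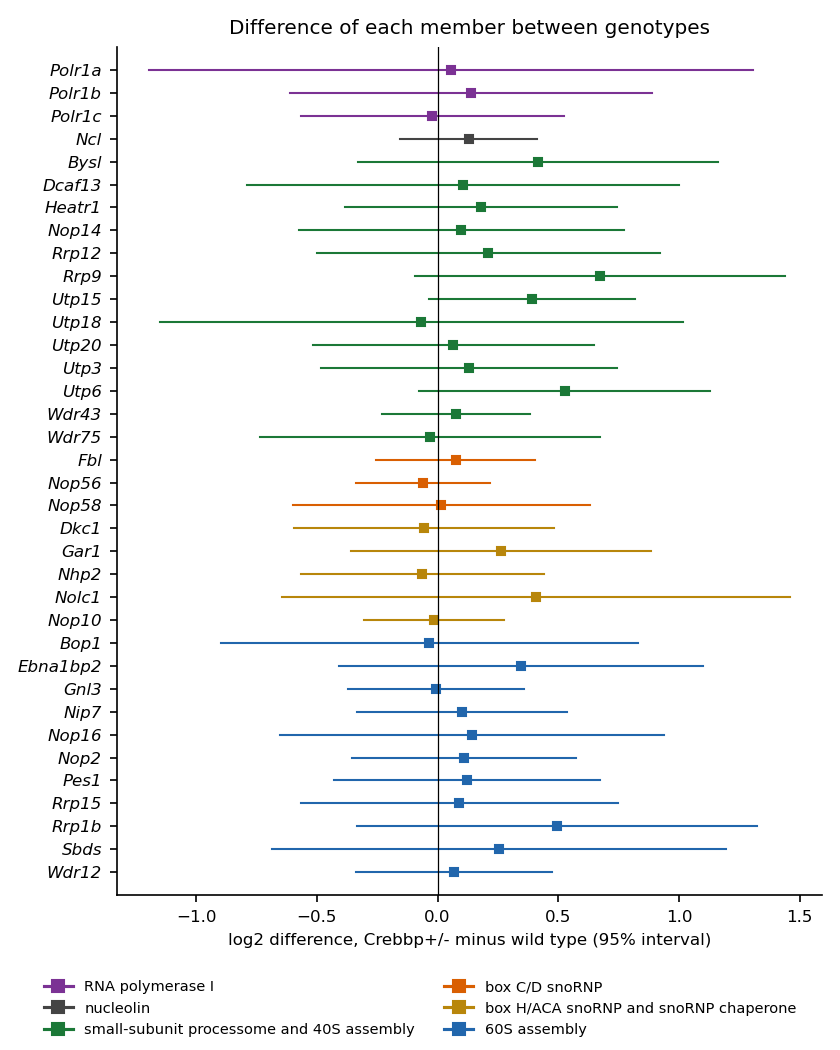
Log2 difference of each gene, Crebbp+/- minus wild type (x axis), with the 95% limma interval as a line, coloured by role. All 36 intervals cross 0, and the points run from -0.067 to 0.67.

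Genes of the small-subunit processome and of 40S assembly held the 2 largest positive differences of the set, those of Rrp9 and Utp6. Of 13 such genes 11 were higher in Crebbp+/- and 2 lower, with a median of 0.13, and in 6 (46.2%) both Crebbp+/- samples lay above both wild-type samples, against 17.2% of all genes tested. Rrp9, the U3-specific protein of the box C/D particle that pairs with the precursor, had log2 signals of 5.27 and 5.57 in the Crebbp+/- samples, against 4.89 and 4.60 in the wild-type samples. The groups did not overlap, also not over the single arrays, and the difference was 0.67 (SE 0.29, 95% interval -0.095 to 1.44, limma adjusted p = 0.989). Utp6, a processome protein with helical repeats, had 9.81 and 9.76 in the Crebbp+/- samples, against 9.49 and 9.02 in wild type. Its difference was 0.53 (SE 0.23), with all 4 Crebbp+/- arrays above all 4 wild-type arrays, and was 0.30 without wild-type sample 2. Utp15, of the subcomplex that links the processome to transcription of the precursor, had 10.10 in each Crebbp+/- sample, against 9.71 in each wild-type sample. Here the 2 samples of a genotype were nearly equal, and the difference was 0.39 (SE 0.16, interval -0.036 to 0.82, limma adjusted p = 0.989). A second Utp15 probe set differed by 0.16 (SE 0.26), with 9.11 and 8.80 in Crebbp+/-, against 9.03 and 8.57 in wild type, which overlapped.

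Utp20, a large scaffold protein of the pathway, overlapped between genotypes, with 8.81 and 9.10 in Crebbp+/-, against 8.99 and 8.79 in wild type. Its difference of 0.066 (SE 0.22) changed sign without Crebbp+/- sample 2 (-0.076) and without wild-type sample 2 (-0.037). Bysl, a factor of late 40S maturation, differed by 0.42, nearly all of it within the samples numbered 2 (0.79, against 0.043 within those numbered 1). The 2 arrays of wild-type sample 2 read 7.87 and 6.80 on this probe set. A second Bysl probe set differed by 0.14 (SE 0.38), with 0.49 within number 1 and -0.22 within number 2. The other genes of the group were Rrp12, whose yeast counterpart helps export subunit precursors, at 0.21, Heatr1 at 0.18, Utp3 at 0.13, Dcaf13 at 0.11, Nop14 at 0.099, Wdr43 at 0.077, Wdr75 at -0.033 and Utp18 at -0.067. Heatr1, Wdr43 and Wdr75 belong, with Utp15, to the part of the processome that is needed for transcription of the precursor.

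On their brightest probe sets, RNA polymerase I subunits and nucleolin differed little. Dimmer probe sets, given below, reached -0.68 for Polr1a and 0.71 for Ncl. Polr1b, the second largest subunit of the polymerase, had log2 signals of 6.64 and 6.98 in Crebbp+/-, against 6.57 and 6.77 in wild type. The groups overlapped, the difference was 0.14 (SE 0.29), and without Crebbp+/- sample 2 it was -0.032. Polr1a, the largest subunit, differed by 0.054, and Polr1c, shared with RNA polymerase III, by -0.022. Ncl encodes nucleolin, an abundant nucleolar protein that binds the precursor. It had 12.37 and 12.38 in Crebbp+/-, against 12.26 and 12.23 in wild type, with no overlap over single arrays. The difference was 0.13 (SE 0.11, interval -0.16 to 0.41), or 1.09-fold, and did not pass the test.

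In the particles that modify ribosomal RNA, the brightest probe sets of the core proteins lay within 0.1 log2 units of wild type, except that of Gar1. Fbl, the methyltransferase fibrillarin, had 11.72 and 11.78 in Crebbp+/-, against 11.62 and 11.73 in wild type. The groups overlapped, and the difference was 0.076 (SE 0.13, interval -0.25 to 0.40). A dimmer Fbl probe set had 10.21 and 10.12 in Crebbp+/-, against 9.80 and 10.01 in wild type. It differed by 0.26 (SE 0.18), with no overlap over single arrays, and did not pass the test. The Fbl partners Nop56 and Nop58 differed by -0.061 and 0.015. On the brightest probe sets, Nop56 was the only 1 of the 36 genes with both Crebbp+/- samples below both wild-type samples. A dimmer Nop56 probe set overlapped between genotypes and differed by 0.086 (SE 0.22), with 0.12 within number 1 and 0.053 within number 2.

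Dkc1, the pseudouridine synthase dyskerin, had 11.88 and 12.22 in Crebbp+/-, against 11.90 and 12.31 in wild type, so that the genotypes overlapped and the sample numbers did not. Its difference of -0.055 (SE 0.21) turned to 0.12 without Crebbp+/- sample 1 and to 0.15 without wild-type sample 2. The other H/ACA proteins Nhp2, Nop10 and Gar1 differed by -0.063, -0.016 and 0.26. Dimmer probe sets of Dkc1 differed by 0.20 and -0.14, that of Nhp2 by 0.21 and that of Nop10 by 0.029. Nolc1, a chaperone that gathers these particles, had 10.95 and 10.32 in Crebbp+/-, against 10.71 and 9.74 in wild type. Its difference of 0.41 (SE 0.40) did not pass and was -0.073 without wild-type sample 2.

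Of 11 genes of 60S assembly, 9 were higher in Crebbp+/- and 2 lower, with a median of 0.11. Rrp1b, a nucleolar protein of the large-subunit precursor, had 11.84 and 11.25 in Crebbp+/-, against 11.38 and 10.72 in wild type. The difference was 0.50 (SE 0.32), the groups overlapped, and both samples numbered 2 were the lower ones of their genotype. Omitting Crebbp+/- sample 1 gave 0.20 and omitting Crebbp+/- sample 2 gave 0.79, while omitting wild-type sample 1 gave 0.83 and omitting wild-type sample 2 gave 0.16. Ebna1bp2, a 60S processing factor, differed by 0.35 and showed the same order of samples. Pes1, which with Bop1 and Wdr12 forms the PeBoW complex of 60S maturation, had 8.64 and 8.86 in Crebbp+/-, against 8.62 and 8.63 in wild type. Its difference of 0.12 (SE 0.21) was -0.022 without array 2 of wild-type sample 1, and those of Wdr12 and Bop1 were 0.069 and -0.033. A second Wdr12 probe set of similar brightness (mean 10.11, against 10.29) differed by -0.12 (SE 0.33).

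Gnl3 encodes nucleostemin, a nucleolar GTPase of stem and dividing cells. It had 12.19 and 12.05 in Crebbp+/-, against 12.23 and 12.02 in wild type, a difference of -0.0052 (SE 0.14, interval -0.37 to 0.36) whose sign depended on the sample omitted. Sbds, which helps release a block on subunit joining from new 60S subunits, had 6.22 and 5.66 in Crebbp+/-, against 5.92 and 5.45 in wild type. Its difference of 0.25 (SE 0.36) was -0.023 without Crebbp+/- sample 1. The remaining genes were the ribosomal RNA methyltransferase Nop2 at 0.11, Nop16 at 0.14, Nip7 at 0.10 and Rrp15 at 0.090.

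Within each sample number, too, most genes of the set were higher in Crebbp+/-, and no test was made of these counts. Within the samples numbered 1, 29 of 36 genes were higher in Crebbp+/-, with a median of 0.10. Within those numbered 2, 28 were, with a median of 0.14. Over all 10692 genes tested, 5748 were higher within number 1 (median 0.020) and 6280 within number 2 (median 0.062). In 23 genes of the set (63.9%) both differences were positive, against 37.2% of all genes tested. In 2 genes, Nop56 and Dkc1, both were negative, against 24.7%. With quantile normalization these counts were 18 and 5. The remaining 11 genes changed sign between numbers, among them Utp18 (-0.36 and 0.23), Bop1 (-0.27 and 0.21) and Rrp15 (0.33 and -0.15). Both Crebbp+/- samples lay above both wild-type samples in 10 genes (27.8%), against 17.2% of all genes, and below in 1, against 11%. All 4 Crebbp+/- arrays lay above all 4 wild-type arrays for Rrp9, Utp6, Utp15 and Ncl (11.1%), against 3.65% of all genes, and below for none, against 1.97%.

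**Figure D3:**
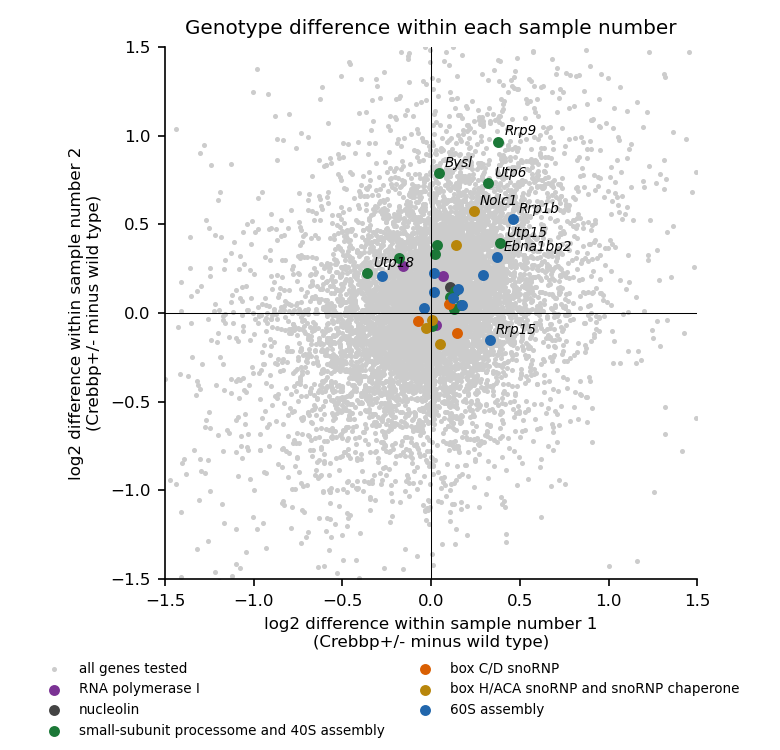
Log2 difference, Crebbp+/- minus wild type, within the samples numbered 1 (x axis) and within those numbered 2 (y axis) for the 36 genes, coloured by role, over all genes tested in grey. The axes end at 1.5, which leaves out 141 genes, and 23 of the 36 genes lie above 0 on both axes.

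For most of these genes, as for most genes tested, the difference between sample numbers was larger than that between genotypes. The median absolute log2 difference over the 36 genes was 0.10 between genotypes and 0.24 between sample numbers, both taken between means of several arrays. Over all genes tested these were 0.18 and 0.28. Between single repeat arrays of 1 sample it was 0.16, against 0.20 over all genes. Single arrays vary more than means, so this value is not a bound for the other 2. In 12 of 36 genes (33.3%) the genotype difference was larger than that between sample numbers, against 35.5% of all genes tested. Sample 2 differed from sample 1 in the same direction in both genotypes for 25 genes, 13 higher and 12 lower, against 39% higher and 33.9% lower over all genes. Polr1a was higher in sample 2 by 1.09 in Crebbp+/- and 0.67 in wild type, and Utp18 by 1.02 and 0.43. Nolc1 was lower in sample 2 by log2 differences of -0.63 in Crebbp+/- and -0.96 in wild type, Dcaf13 by -0.74 and -0.62, and Rrp1b by -0.59 and -0.66. With Gar1, Nop14, Nop16, Ebna1bp2 and Sbds, 8 genes were lower in sample 2 by more than 0.3 in both genotypes. The 5 genes higher by more than 0.3 in both were Polr1a, Utp18, Utp3, Wdr75 and Dkc1. These are values of the brightest probe sets, and dimmer ones of the same gene could differ. Dimmer Dkc1 probe sets gave 0.56 and -0.52 in Crebbp+/-, and 0.45 and -0.44 in wild type. Those of Polr1a gave 0.34 and -0.089 in Crebbp+/-, and -0.30 and -0.21 in wild type. Those of Nolc1 gave -0.10 and 0.16 in Crebbp+/-, and -0.46 and 0.024 in wild type.

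**Figure D4:**
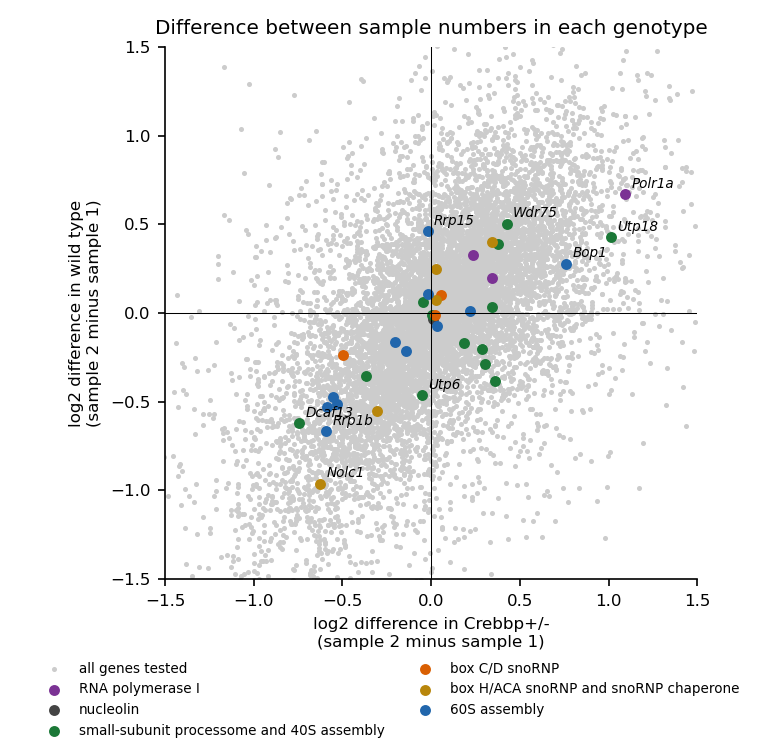
Log2 difference of sample 2 minus sample 1 in Crebbp+/- (x axis) and in wild type (y axis) for the 36 genes, coloured by role, over all genes tested in grey. The axes end at 1.5, which leaves out 248 genes, and Polr1a and Nolc1 lie at opposite ends of the diagonal.

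Measures of RNA quality differed both by sample number and by genotype. The Gapdh control's 5' minus 3' log2 signal was -0.89 and -1.88 in Crebbp+/- samples 1 and 2, against -1.22 and -2.59 in wild-type samples 1 and 2. For actin it was -1.90 and -2.55 in Crebbp+/-, against -2.13 and -3.19 in wild type, and for 18S ribosomal RNA -0.37 and -1.02, against -0.60 and -1.55. For Gapdh and actin sample 2 was the more 3'-biased of its genotype, and within each number the Crebbp+/- sample was the less 3'-biased. The 18S values had the same order but are not read as 3' bias. Its probe sets showed no steady gradient, with means over the 8 arrays of 5.93 (5' end), 12.41 (middle) and 6.82 (3' end).

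Markers of other cells included liver transcripts in which wild-type sample 1 stood apart from the other 3 samples. Of 8 hepatocyte markers measured 6 were above the filter, and their summed log2 signal was 32.3 and 34.5 in Crebbp+/-, against 18.1 and 38.9 in wild type. Their median genotype difference was 2.67 in the comparison of samples 1 and -0.72 in that of samples 2. The lowest wild-type mean of these markers was 2.59, under the filter of 2.67. That marker was tested, and entered these sums, only through its Crebbp+/- values. Without wild-type sample 1 the median of the ribosome biogenesis genes was 0.13, with 25 higher, against 0.034 and 54.0% higher over all genes tested. Over 11 proliferation genes above the filter the median genotype difference was 0.054, with sums of 116.8 and 120.3 in Crebbp+/-, against 117.3 and 118.9 in wild type. Tested macrophage markers (3 of 9 measured) summed to 17.5 and 20.8 in Crebbp+/-, against 18.4 and 20.2 in wild type, and endothelial ones (3 of 7) to 21.7 and 21.9, against 23.3 and 22.4.

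The 3 erythroid markers tested of 8 summed to 17.6 and 17.4 in Crebbp+/-, against 16.9 and 17.5 in wild type, and went in different directions. Slc4a1, the band 3 anion exchanger, had 2.93 and 3.45 in Crebbp+/-, against 2.46 and 2.52 in wild type. Both wild-type values lay under the filter of 2.67, so Slc4a1 was tested, and entered these sums, only through its Crebbp+/- values. Tfrc differed by 0.17. Gata1, an erythroid transcription factor, had 3.62 and 3.37 in Crebbp+/-, against 3.82 and 4.32 in wild type. Erythroid Alas2 and Hba-a1, macrophage C1qa and Marco, and endothelial Kdr lay under the filter in both genotypes.

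Of 9 tested markers of the sorted stem cells 7 were higher in Crebbp+/- and 2 lower, and limma called none after adjustment. The 2 lower ones, Mecom and Hlf, are transcription factors of stem cells, and both had an unadjusted limma p under 0.05. Mecom had 11.35 and 11.22 in Crebbp+/-, against 11.74 and 11.58 in wild type, a difference of -0.38 (SE 0.14). Hlf had 9.57 and 9.30 in Crebbp+/-, against 9.88 and 10.08 in wild type, a difference of -0.54 (SE 0.20). For both, all 4 Crebbp+/- arrays lay below all 4 wild-type arrays, which held for 1.97% of all genes tested. An unadjusted limma p under 0.05, in either direction, was found for 2.65% of all genes tested. Kit had 9.34 and 9.31 in Crebbp+/-, against 9.36 and 9.05 in wild type, and Cd93, which encodes AA4.1, had 12.24 and 12.16, against 12.33 and 12.05. No probe set was assigned to Ly6a, the gene of Sca-1, alone. The part of RNA quality and of these markers in the differences above was not tested.

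Signal of 18S ribosomal RNA, the product of the small-subunit branch, was lower in Crebbp+/- on the array's control probe sets, which were not among those tested. The probe set for the middle of 18S had 12.04 and 12.25 in Crebbp+/-, against 12.42 and 12.93 in wild type. That for its 3' end had 6.00 and 6.47, against 6.53 and 8.26, and that for its 5' end had 5.63 and 5.44, against 5.93 and 6.71. Both Crebbp+/- samples lay below both wild-type samples on all 3 probe sets, and the log2 differences were -0.53, -1.16 and -0.78. The 3 probe sets read the same RNA, and 11% of all genes tested had both Crebbp+/- samples below both wild-type samples. Over single arrays the 3' probe set overlapped between genotypes, and the other 2 did not. How much 18S enters the labelled cDNA depends on the amplification as well as on the cells, and these cannot be told apart here.

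Probe sets of the same gene did not always go together. The 36 genes had 72 probe sets, of which 66 were tested, 49 with a positive and 17 with a negative difference. Of 22 genes with several tested probe sets, 9 had differences of both signs (40.9%), against 52.6% of such genes over the whole array. Heatr1, which encodes a processome protein needed for transcription of the precursor, showed the widest contrast. Its second probe set had 6.94 and 6.98 in Crebbp+/-, against 7.82 and 7.74 in wild type, with all 4 Crebbp+/- arrays below all 4 wild-type arrays. The difference of -0.82 (SE 0.24, interval -1.45 to -0.19) had the only unadjusted limma p under 0.05 among the 66, 0.021, and did not pass adjustment (adjusted p = 0.989). The brighter probe set had 9.10 and 9.44 in Crebbp+/-, against 9.07 and 9.10 in wild type.

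Polr1a had the same pattern, with its dimmest tested probe set at 5.57 and 5.48 in Crebbp+/-, against 6.31 and 6.10 in wild type, a difference of -0.68 (SE 0.28) with no overlap over single arrays. Its brightest probe set differed by 0.054 and the one between them by -0.16. All tested probe sets went the same way for Utp6 (0.53, 0.41 and 0.42), Nolc1 (0.41, 0.31 and 0.46) and Rrp1b (0.50, 0.27 and 0.30). Of 5 Ncl probe sets, 4 had positive differences, from 0.13 to 0.71, and 1 had -0.0068. All 4 Crebbp+/- arrays lay above all 4 wild-type arrays for 7 of the 66 probe sets, against 3.21% of all probe sets, and below for 2, against 3.7%.

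**Figure D5:**
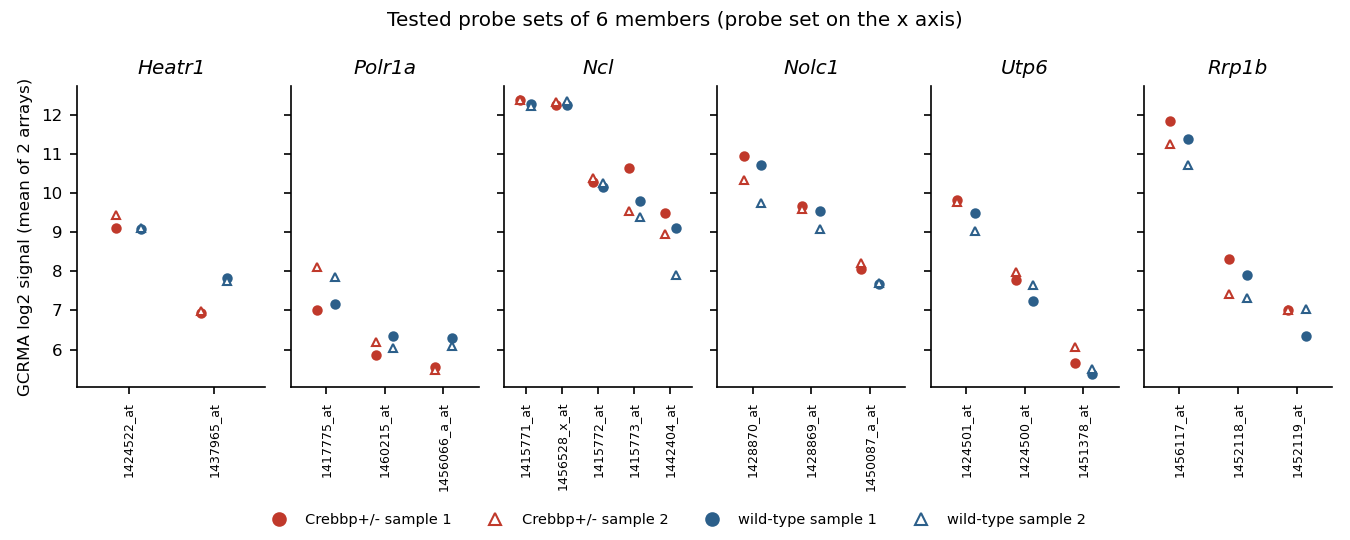
GCRMA log2 signal (y axis, mean of 2 arrays) of each tested probe set (x axis) of 6 genes, with Crebbp+/- samples in red on the left, wild-type samples in blue on the right, circles for sample 1 and triangles for sample 2. The dimmer probe sets of Heatr1 and Polr1a are lower in Crebbp+/-, while those of Utp6 and Nolc1 are higher.

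Other genes of the pathway also had more positive than negative differences. Of 117 further genes listed for RNA polymerase I transcription, the small subunit, the large subunit and the RNA exosome, which trims the precursor, 114 were measured and tested. Of these 81 (71.1%) were higher in Crebbp+/- and 33 lower, against 56.8% higher over all genes. Their median log2 difference was 0.12, against 0.041 over all genes, and limma called none at an adjusted p of 0.05. At an unadjusted p under 0.05 there was 1 in each direction, against 2.65% of genes. Nop9 had 8.98 and 8.84 in Crebbp+/-, against 8.34 and 8.04 in wild type, a difference of 0.72 (SE 0.23). Rpf1, a 60S assembly factor, had 6.82 and 6.26 in Crebbp+/-, against 7.34 and 8.08 in wild type, a difference of -1.17 (SE 0.39).

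By group, 33 of 44 small-subunit genes, 30 of 45 large-subunit genes, 12 of 13 exosome genes and 6 of 12 RNA polymerase I genes were higher. Next in order of p were the processome genes Pwp2 at 0.69 (SE 0.27) and Rrp36 at 0.60 (SE 0.24), and, among lower ones, Taf1d of the polymerase I initiation complex at -0.32 (SE 0.19) and Tsr1, a 40S maturation factor, at -0.35 (SE 0.21). Ubtf, which activates polymerase I promoters, had 12.46 and 12.36 in Crebbp+/-, against 12.32 and 12.16 in wild type, with no overlap and a difference of 0.17 (SE 0.12). Npm1, the nucleolar protein nucleophosmin, differed by 0.0015 (SE 0.10).

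Transcripts listed for the MYC network went in both directions. The list pools Myc, Mycn, Mycl and Max with Mxd1, Mxd3, Mxd4, Mxi1, Mnt and Mga. Not all of these activate the pathway, so its counts do not measure MYC activity. Myc had 9.57 and 9.88 in Crebbp+/-, against 9.63 and 9.69 in wild type, a difference of 0.063 (SE 0.20). Mycn had 11.633 and 11.131 in Crebbp+/-, against 11.689 and 11.002 in wild type, a difference of 0.036 (SE 0.30). Both overlapped between genotypes. Of 10 network genes 7 were higher and 3 lower, with differences from -0.31 to 0.37, a median of 0.050 and a median size of 0.17, and none passed the test. The median size over all genes was 0.18.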

How the data were processed

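Deposited log2 values of 8 arrays were used. The authors made these log2 signals with GCRMA, a background correction, normalization and summary per probe set, per the submitters' processing notes. No GCRMA version is given in the sources used. There were 45101 probe sets, of which 64 were controls, and array medians lay between 2.65 and 2.70. Depth does not apply to arrays, and the number of samples limits the precision. Symbols came from the platform annotation, where 34945 probe sets had 1 symbol, 932 several and 9160 none, and 34741 matched the GRCm38.p6 gene table by identifier.

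Log2 values were averaged per numbered sample. The 22846 probe sets with a mean above 2.67, the median of all values, entered a linear model per probe set (limma 3.58.1 under R 4.3.3, moderated by eBayes with an intensity trend; 2 residual and 4.72 total degrees of freedom), with Benjamini-Hochberg adjustment at 0.05. The procedure was tested on simulated data. Counts over gene lists are descriptions.

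Members, lists and tests were chosen with earlier results of these data known. Values of each sample were given for Polr1b, Utp20, Fbl, Dkc1, Pes1, Ncl, Gnl3 and Sbds, for genes whose arrays did not overlap or whose unadjusted p was under 0.05, and for the largest difference of each role. From other lists, the 3 lowest p in each direction and Myc, Mycn, Npm1 and Ubtf were named. Heatr1 and Polr1a probe sets, single marker genes and the other genes given as differences were named after their values were seen. Alternatives covered replication, the sample number, filters, normalization, a floor, the variance model, the probe set and omissions.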

Additional observations from a re-analysis of the deposited data

How the results depend on the processing

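No member was called by limma under any of the alternatives at an adjusted p of 0.05. Over all probe sets, 1 was called with all 8 arrays taken as independent, and 1103 had an unadjusted p under 0.05. Of the counts of members lower in Crebbp+/-, 9 as reported, all lay between 6 and 12. The median difference was 0.060 with quantile normalization, and with 1 sample or array omitted it ranged from 0.051 to 0.145. Gnl3 turned to 0.0013 with arrays centred on the median of tested probe sets and Dkc1 to 0.0029 when all tested probe sets of the gene were averaged. With 1 sample or array omitted, differences of both signs were found for Polr1b (-0.032 to 0.310), Utp20 (-0.076 to 0.208), Dkc1 (-0.257 to 0.146), Pes1 (-0.022 to 0.263), Gnl3 (-0.111 to 0.101), Sbds (-0.023 to 0.532) and Nolc1 (-0.073 to 0.888). The other 6 members given by sample kept their direction in each alternative run. Among these, omissions moved Fbl between 0.0051 and 0.146, Utp6 between 0.296 and 0.757 and Rrp1b between 0.164 and 0.828. The causes were not tested. Deviations from the genotype means correlated between samples of the same number (0.55), but the labels do not say what the number marks. In the fit with a replicate block for the number, 0 probe sets and 0 members were called. With 2 samples per genotype, differences of the size seen could not be separated from the spread between samples.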
